A study of Homo sapiens with 6 samples.

Results

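The 10 mRNAs described here encode chaperones and folding enzymes of the endoplasmic reticulum (ER). They are HSPA5, HYOU1, HSP90B1, SDF2L1, CALR, CANX, P4HB, PDIA3, PDIA4 and PDIA6, taken by gene name from both deposited tables, and they are 10 of the 58302 genes listed there. They were measured by RNA immunoprecipitation and sequencing (RIP-seq), in which an antibody against an RNA-binding protein is used to pull down that protein with its bound RNA, in the human liver cancer cell line HepG2. The series' title is about the induction of PABPC4 in MYC-driven liver cancer, and the comparisons ask which RNAs came down with each of 2 cytoplasmic poly(A)-binding proteins.

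Per the labels, the PABPC4 RIP group holds 2 libraries made with an anti-PABPC4 antibody from HepG2 cells overexpressing PABPC4. The PABPC1 RIP group holds 2 libraries made with an anti-PABPC1 antibody from HepG2 cells overexpressing PABPC1. The IgG group holds 2 control libraries made with rabbit IgG, 1 from each of these overexpressing populations. By the labels, every group thus came from cells overexpressing a poly(A)-binding protein. How overexpression was achieved, and whether the replicates came from separate cultures, could not be learned from the labels. The limma-voom p-values given below therefore measure at most the spread between libraries that may be technical repeats, and the deposited ones leave that spread out. The 2 IgG libraries came from different populations, yet the limma-voom fit treated them as replicates. The PABPC4 and PABPC1 groups differ in both antibody and cell population, and these cannot be told apart. No input RNA and no cells without PABPC overexpression were analysed here.

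Proteins that enter the secretory pathway fold inside the ER with the help of several families of helpers. HSP70-type and HSP90-type chaperones hold unfolded chains, the lectin chaperones hold chains by their sugar trees, and protein disulfide isomerases form and reshuffle the bonds between cysteines. Liver cells secrete most plasma proteins and keep much of this machinery at high levels, and its genes are known targets of the unfolded protein response, which raises ER chaperones when unfolded chains accumulate. Poly(A)-binding proteins coat the tail at the 3′ end of mRNAs and act in their translation and turnover. PABPC1 is the abundant cytoplasmic form and PABPC4 a less abundant relative.

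A feature that several of the 10 genes share lies in their promoters and not in the measured RNA. The ER stress element (CCAAT, then any 9 bases, then CCACG) is the sequence through which the unfolded protein response factors are known to act, and it was searched on both strands in RefSeq promoter windows of build GRCh38.p14, running from 250 bases before to 50 after each start. It was found in 5 of the 9 members that had a window: HSPA5, HSP90B1 (2 copies), CALR, CANX and PDIA6. Among all 35116 windows 27 held it (0.0769%), and by gene 25 of 27305 (0.0916%). HYOU1, P4HB, PDIA4 and SDF2L1 had no match of these letters in their windows, and PDIA3 had no window in the table. The element was searched because it is already known from the unfolded protein response, of which these genes are known targets. Its share among the members is therefore not an independent finding. The 6 copies are shown because few windows hold this sequence. Each runs 5′ to 3′ on the strand of the gene with 8 bases on either side, and capitals mark the conserved bases on both sides of the spacer (CCAAT and CCACG, or CGTGG and ATTGG where the element lies on the opposite strand):
HSPA5, chr9:125241383-125241417, minus strand: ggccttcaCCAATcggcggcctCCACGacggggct
HSP90B1, chr12:103930208-103930242, plus strand: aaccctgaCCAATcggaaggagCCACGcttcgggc
HSP90B1, chr12:103930313-103930347, plus strand: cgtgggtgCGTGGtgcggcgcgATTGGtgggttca
CALR, chr19:12938376-12938410, plus strand: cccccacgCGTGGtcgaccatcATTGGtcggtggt
CANX, chr5:179698770-179698804, plus strand: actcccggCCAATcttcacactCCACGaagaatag
PDIA6, chr2:10812845-10812879, minus strand: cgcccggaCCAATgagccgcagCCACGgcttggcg

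The windows of CANX and PDIA6 precede start sites that lie inside the annotated gene spans (chr5:179678656-179731641 and chr2:10783391-10837712). The element is in DNA, and nothing in these libraries measures its use.

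The libraries were shallow. Reads were recovered from the deposited values, and the larger library of each group is called A. The totals were 850190 and 841327 reads for PABPC4 libraries A and B, 289217 and 277552 for PABPC1 and 133030 and 94235 for IgG. Reads of nuclear-encoded genes made up 78.1% and 76.7% of the PABPC4 libraries, 53.0% and 58.5% of the PABPC1 libraries and 38.2% and 40.1% of the IgG libraries. A gene can therefore hold a larger share of a RIP library than of an IgG library while holding the same share of its mRNA. Over the 6239 genes with at least 50 reads in all that were split by library, the median gene stood at 2.07 times in PABPC4 over IgG, 1.48 times in PABPC1 over IgG and 1.38 times in PABPC4 over PABPC1, per library read. The mRNA of PABPC4 itself stood at 162 and 183 RPM (reads per 1000000 reads of the library) in PABPC4 libraries, 111 and 155 in PABPC1 libraries and 75.2 and 42.4 in IgG libraries. PABPC1 mRNA stood at 590.5 and 676 RPM with PABPC4, 595 and 634 with PABPC1 and 286 and 318 with IgG. These levels in precipitated RNA do not measure the overexpression, which was not tested here. Hepatocyte markers had reads in every group for 14 of 15 genes, the exception being TTR (3 reads with PABPC4, 2 with PABPC1 and 0 with IgG), with summed levels of 10160 to 10816 RPM in PABPC4, 7437 to 8276 in PABPC1 and 4751 to 4786 in IgG libraries.

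Summed over the list, ER folding mRNAs took up a larger share of the reads of the PABPC4 libraries than of the PABPC1 or IgG libraries. The 10 mRNAs held 1.13% and 1.08% of PABPC4 reads, 0.567% and 0.623% of PABPC1 reads and 0.425% and 0.436% of IgG reads. The shares of summed reads were 1.10% for PABPC4 (exact Clopper-Pearson 95% interval 1.09% to 1.12%), 0.594% for PABPC1 (0.575% to 0.615%) and 0.430% for IgG (0.403% to 0.458%). The libraries of the 3 groups did not overlap, although 2 libraries against 2 cannot give an exact permutation p below 0.33. Among reads of nuclear-encoded genes alone the shares were 1.43% for PABPC4, 1.07% for PABPC1 and 1.10% for IgG, so that PABPC1 and IgG no longer differed beyond their counting intervals. HSP90B1 alone supplied 41.7% of the members' PABPC4 reads, against 32.5% of their PABPC1 reads and 28.8% of their IgG reads. Without HSP90B1 the members held 0.644% of all PABPC4 reads, 0.401% of all PABPC1 reads and 0.306% of all IgG reads. Their share of nuclear-encoded reads without HSP90B1 was not worked out. The higher PABPC4 share among nuclear-encoded genes is thus shown only with HSP90B1 included. Intervals and limits given here cover the counting error of summed reads only and leave out the spread between libraries. The reads carry no molecular identifiers, so amplified copies could not be told apart and the intervals may be too narrow.

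**Figure D1:**
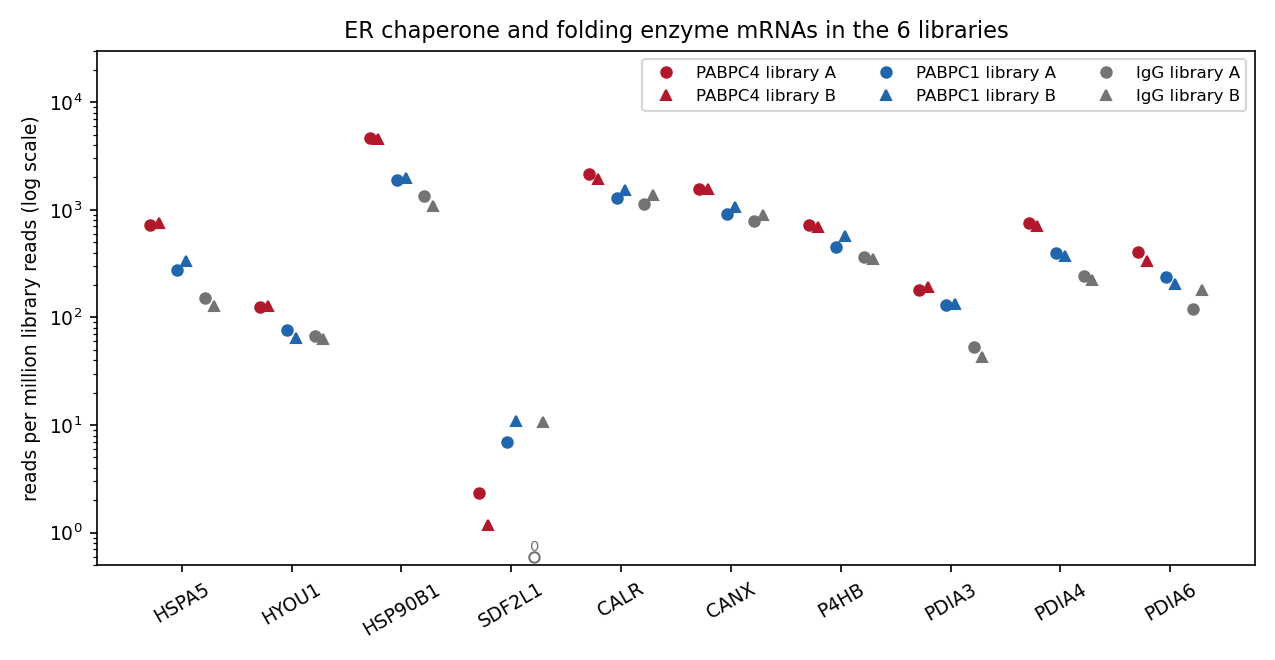
RPM, reads per 1000000 library reads (log scale), of the 10 ER folding mRNAs, with circles for library A and triangles for library B of the PABPC4 RIP, PABPC1 RIP and IgG groups. HSP90B1 is highest in PABPC4 libraries (4532 and 4668), and SDF2L1 has at most 3 reads in any library, with an open symbol at 0 for IgG library A.

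In the authors' deposited table for PABPC4 against IgG, 8 of the 10 mRNAs were higher at an adjusted p under 0.05, and 0 were lower. The same rule in that deposited table called 5.54% of 21455 genes higher and 0.9% lower, and among the 2156 genes with at least 10 IgG reads 39.1% higher and 2.88% lower. The authors' deposited table for PABPC1 had 2 of 10 members higher, 0 lower, and as background 1.34% of 17565 genes higher and 0.194% lower. Among genes with at least 10 IgG reads these shares were 9.14% and 1.3% in the deposited PABPC1 table. The deposited p-value is a chi-square test on summed reads, so it covers counting error and leaves out the spread between libraries. A fit over the 6 libraries with limma-voom, scaled to the median of ratios and thus close to the median gene, called 3 of the 9 members tested higher in PABPC4 than in PABPC1 and 0 lower, with 2.07% of 7975 genes called higher and 2.27% lower. The same fit called 2 of 9 higher in PABPC4 than in IgG (1.73% of all genes higher, 2.22% lower) and 0 of 9 in PABPC1 against IgG (0.351% higher, 0.489% lower). In that last contrast 2 members, HSPA5 and CALR, had an unadjusted p under 0.05, in opposite directions. The limma-voom shares cover all genes with at least 10 reads in 2 libraries. The 3 members called between the RIPs had 1449 (HSPA5), 9158 (HSP90B1) and 1507 (PDIA4) reads in all. No limma-voom share was worked out for genes of such depth.

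Among the ER chaperones of the HSP70 and HSP90 type, HSPA5 and HSP90B1 were the members most enriched with PABPC4 relative to PABPC1. HSPA5 encodes BiP, the HSP70 chaperone of the ER lumen, which binds unfolded chains and holds the stress sensors of the ER inactive (gene at chr9:125234853-125241343, GRCh38.p14). It had 608 and 637 reads in PABPC4 libraries, 80 and 92 in PABPC1 libraries and 20 and 12 in IgG libraries. These were 715 and 757 RPM with PABPC4, 277 and 331 with PABPC1 and 150.3 and 127 with IgG. Every PABPC4 library lay above every PABPC1 library and every PABPC1 library above every IgG library. HSPA5 was listed at 5.30-fold over IgG with PABPC4 (adjusted p = 3.4e-22) and 2.19-fold with PABPC1 (adjusted p = 0.00724) in the authors' deposited tables. The ratios of summed reads were 5.23 for PABPC4 over IgG (exact 95% interval 3.68 to 7.68) and 2.16 for PABPC1 over IgG (1.47 to 3.25). The PABPC1 interval holds the median gene's 1.48. In the limma-voom fit HSPA5 was higher with PABPC4 than with PABPC1 by 0.80 on the log2 scale (SE 0.13, adjusted p = 7.3e-05) and higher than with IgG by 1.41 (SE 0.26, adjusted p = 0.00044). Its ratio of PABPC4 over PABPC1 ranked 370 of 6239 genes. Leaving out PABPC1 library A or B ended the limma-voom call, at 1.66-fold (adjusted p = 0.314) and 1.82-fold (adjusted p = 0.188), where the lone PABPC1 library was assumed to vary like the other groups. The deposited PABPC1 call was lost by the same test without PABPC1 library B (1.99-fold), IgG library A (2.39-fold) or IgG library B (2.02-fold).

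HSP90B1 encodes GRP94, the HSP90 of the ER lumen, which completes the folding of a narrower set of secreted and membrane proteins (chr12:103930410-103947926). In the PABPC4 and PABPC1 libraries it had the most reads of the 10, and in IgG its summed reads equalled those of CALR. It had 3969 and 3813 in PABPC4 libraries, 544 and 551 in PABPC1 libraries and 178 and 103 in IgG libraries. HSP90B1 stood at 4668 and 4532 RPM with PABPC4, 1881 and 1985 with PABPC1 and 1338 and 1093 with IgG, and no 2 groups overlapped. The authors' deposited tables gave HSP90B1 3.78-fold over IgG for PABPC4 (adjusted p = 3e-116) and 1.59-fold for PABPC1 (adjusted p = 1.3e-08). From summed reads the ratios were 3.72 for PABPC4 over IgG (exact 95% interval 3.30 to 4.21) and 1.56 for PABPC1 over IgG (1.37 to 1.79), and the PABPC1 interval again held the median gene's value. HSP90B1 was higher with PABPC4 than with PABPC1 by 0.78 on the log2 scale (SE 0.059, adjusted p = 4.7e-13, limma-voom) and higher than with IgG by 0.96 (SE 0.11, adjusted p = 3.4e-08). Without PABPC1 library B the first of these calls was lost (1.68-fold, limma-voom adjusted p = 0.0589). HSP90B1 has near-identical pseudogene copies. Of these, HSP90B2P had 52 PABPC4 reads, 8 PABPC1 reads and 0 IgG reads, so reads could have been split between them, and a microRNA gene, MIR3652, overlaps HSP90B1.

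HYOU1 and SDF2L1 work with BiP and were much less abundant. HYOU1, an HSP110-type chaperone that exchanges the nucleotide of BiP, had 106 and 108 reads in PABPC4 libraries, 22 and 18 in PABPC1 libraries and 9 and 6 in IgG libraries. HYOU1 stood at 125 and 128 RPM with PABPC4, 76.1 and 64.9 with PABPC1 and 67.7 and 63.7 with IgG. The PABPC4 libraries lay above the rest, while the PABPC1 and IgG libraries overlapped. HYOU1 was called neither in the deposited tables nor in the limma-voom fit scaled to the median of ratios: the authors' deposited tables gave 1.93-fold for PABPC4 (adjusted p = 0.179) and 1.07-fold for PABPC1 (adjusted p = 1), and limma-voom gave 0.35 on the log2 scale for PABPC4 over PABPC1 (SE 0.26, adjusted p = 0.546). Scaled to library totals, limma-voom called HYOU1 higher with PABPC4 than with PABPC1 (1.76-fold, adjusted p = 0.0295). An antisense RNA, HYOU1-AS1, overlaps HYOU1, and no source used here says if the counting used strand. SDF2L1, a cofactor of BiP and its J-domain partners, had 2 and 1 reads with PABPC4, 2 and 3 with PABPC1 and 0 and 1 with IgG. It was too low for limma-voom, and a difference was not detectable at this depth: the ratio of PABPC4 over IgG was 0.403 with an exact 95% interval of 0.0324 to 21.2.

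**Figure D2:**
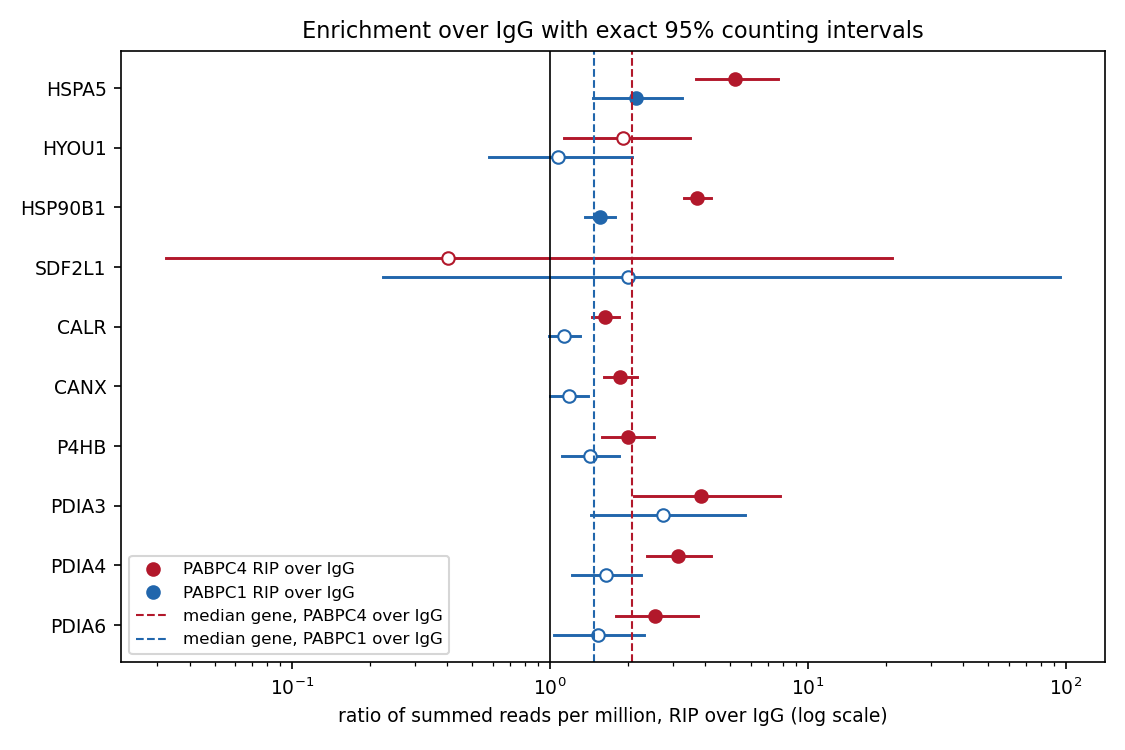
Ratio of summed RPM of PABPC4 RIP over IgG and PABPC1 RIP over IgG (log scale) for each mRNA, with exact 95% counting intervals as bars. Filled points were called at a deposited adjusted p under 0.05, the black line marks 1 and dashed lines mark the median gene at 2.07 (PABPC4) and 1.48 (PABPC1). Each interval of P4HB holds the dashed line of its own comparison, and each interval of CALR lies below it. For PABPC4 the intervals of HSPA5, HSP90B1, PDIA3 and PDIA4 lie above the PABPC4 line.

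The lectin chaperones CALR and CANX were abundant in all 3 groups and lay at or below the median gene against IgG. CALR encodes calreticulin, the soluble lectin chaperone of the lumen, and CANX encodes calnexin, its membrane-bound relative. CALR had 1813 and 1612 reads in PABPC4 libraries, 375 and 420 in PABPC1 libraries and 152 and 129 in IgG libraries. CALR stood at 2132 and 1916 RPM with PABPC4, 1297 and 1513 with PABPC1 and 1143 and 1369 with IgG. The PABPC4 libraries were highest, and the PABPC1 and IgG libraries overlapped. CANX stood at 1561 and 1546 RPM with PABPC4, 913 and 1052 with PABPC1 and 782 and 902.0 with IgG, with no overlap between groups but a narrow gap between PABPC1 and IgG. For PABPC4 against IgG, the authors' deposited table had CALR at 1.61-fold (adjusted p = 2.3e-13) and CANX at 1.85-fold (adjusted p = 9.3e-15). For PABPC1 the authors' deposited table gave CALR at 1.12-fold (adjusted p = 0.874) and CANX at 1.17-fold (adjusted p = 0.756). The exact 95% intervals of the PABPC4 ratios were 1.45 to 1.86 for CALR, below the median gene's 2.07, and 1.61 to 2.18 for CANX, which holds it. Scaling the reads to the median of ratios before the chi-square test gave CALR 0.843-fold (adjusted p = 0.185) and CANX 0.965-fold (adjusted p = 1) for PABPC4 over IgG, so direction and call both depended on the scaling. Between the RIPs, limma-voom gave 0.05 on the log2 scale for CALR (SE 0.075, adjusted p = 0.785) and 0.19 for CANX (SE 0.079, adjusted p = 0.196). Without PABPC4 library B both passed, CALR at 1.14-fold (adjusted p = 0.0345, limma-voom) and CANX at 1.19-fold (adjusted p = 0.0135, limma-voom). CANX also passed without PABPC4 library A, at 1.18-fold (adjusted p = 0.0268, limma-voom). CBY3 and the pseudogene HMGB3P22 overlap CANX, and MIR6515 overlaps CALR.

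The protein disulfide isomerases spread over a range, with PDIA4 the isomerase most enriched with PABPC4 relative to PABPC1. PDIA4 encodes ERp72, an isomerase with several thioredoxin-like domains (chr7:149003051-149028505). It had 646 and 591 reads in PABPC4 libraries, 114 and 103 in PABPC1 libraries and 32 and 21 in IgG libraries. PDIA4 stood at 760 and 702 RPM with PABPC4, 394 and 371 with PABPC1 and 241 and 223 with IgG, with no overlap between the groups. For PDIA4 the authors' deposited tables gave 3.16-fold for PABPC4 (adjusted p = 2.8e-15) and 1.65-fold for PABPC1 (adjusted p = 0.0765). Its ratio of summed reads for PABPC4 over IgG was 3.14 (exact 95% interval 2.38 to 4.21), and for PABPC4 over PABPC1 it was 1.91 (1.65 to 2.22). PDIA4 was higher with PABPC4 than with PABPC1 by 0.46 on the log2 scale (SE 0.12, adjusted p = 0.0228, limma-voom), while against IgG the fit gave 0.68 (SE 0.22, adjusted p = 0.067). The first call was lost without PABPC1 library A (1.48-fold) or PABPC1 library B (1.27-fold).

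PDIA3 encodes ERp57, the isomerase that works with calnexin and calreticulin on glycoproteins. It had 152 and 163 reads with PABPC4, 38 and 37 with PABPC1 and 7 and 4 with IgG. These were 179 and 194 RPM with PABPC4, 131 and 133 with PABPC1 and 52.6 and 42.4 with IgG. Both RIPs lay well above IgG, and the PABPC4 and PABPC1 libraries differed less. The authors' deposited tables listed PDIA3 at 3.92-fold for PABPC4 (adjusted p = 0.00014) and 2.78-fold for PABPC1 (adjusted p = 0.0939). With 11 IgG reads the intervals were wide, at 2.12 to 7.79 for PABPC4 over IgG and 1.44 to 5.71 for PABPC1 over IgG. PDIA3 was the only member whose PABPC1 ratio over IgG lay above that of HSPA5, and its place among all genes was alike in both comparisons with IgG, with 85.1% and 85.2% of 6239 genes below it for PABPC4 and PABPC1. Between the RIPs limma-voom gave 0.01 (SE 0.20, adjusted p = 0.994). The PABPC4 call of PDIA3 did not hold when IgG library A was dropped (4.39-fold, adjusted p = 0.0568). It was also lost by chi-square with median-of-ratios scaling (2.04-fold, adjusted p = 0.397) or nuclear totals (1.98-fold, adjusted p = 0.451) and by limma-voom (1.85-fold, adjusted p = 0.255). The pseudogene PDIA3P1 had 43 PABPC4, 8 PABPC1 and 2 IgG reads, and ELL3 overlaps PDIA3.

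P4HB and PDIA6 showed intermediate values. P4HB encodes PDI itself, which is also the beta subunit of prolyl 4-hydroxylase, and had 616 and 588 reads with PABPC4, 131 and 157 with PABPC1 and 48 and 33 with IgG. P4HB stood at 725 and 699 RPM with PABPC4, 453 and 566 with PABPC1 and 361 and 350.2 with IgG. It was called with PABPC4 (2.002-fold, adjusted p = 8.8e-08) and not with PABPC1 (1.43-fold, adjusted p = 0.209) in the authors' deposited tables, and both folds lay close to those of the median gene. Between the RIPs P4HB gave 0.01 on the log2 scale (SE 0.11, adjusted p = 0.974, limma-voom). PDIA6, an isomerase also known as P5 that attenuates the stress sensors of the ER, had 345 and 283 reads with PABPC4, 69 and 57 with PABPC1 and 16 and 17 with IgG. PDIA6 stood at 406 and 336 RPM with PABPC4, 239 and 205 with PABPC1 and 120.3 and 180.4 with IgG, and its IgG libraries lay farther apart than those of P4HB. The authors' deposited tables gave 2.47-fold for PABPC4 (adjusted p = 4.3e-06) and 1.48-fold for PABPC1 (adjusted p = 0.624) for PDIA6. Dropping IgG library A ended its PABPC4 call (2.06-fold, adjusted p = 0.0889). With median-of-ratios scaling the chi-square test no longer called either mRNA for PABPC4 over IgG, P4HB being at 1.04-fold (adjusted p = 1) and PDIA6 at 1.30-fold (adjusted p = 0.798). ATP6V1C2 and the pseudogene RNU7-176P overlap PDIA6.

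Set against the median gene, the enrichment of the list was uneven. Over the 10 members the median ratio of summed reads was 2.26 for PABPC4 over IgG, against 2.07 over all genes, 1.55 for PABPC1 over IgG, against 1.48, and 1.63 for PABPC4 over PABPC1, against 1.38. Members above the median gene numbered 5 of 10 for PABPC4 over IgG, 6 of 10 for PABPC1 over IgG and 9 of 10 for PABPC4 over PABPC1, SDF2L1 being the exception in the last. In that comparison P4HB, PDIA3 and CALR lay near the median gene, with 51.9%, 52.3% and 55.8% of 6239 genes below them. The PABPC1 over IgG count includes SDF2L1, on 5 PABPC1 reads and 1 IgG read. With libraries weighted equally the PABPC1 count was 5 of 10, PDIA6 lying almost at the median gene. The 3 comparisons share libraries, so these counts are not separate evidence. With the reads scaled to the median of ratios or to nuclear-encoded genes, the chi-square test called 3 of 10 members higher in PABPC4 over IgG, and these were HSPA5, HSP90B1 and PDIA4. The background called higher was 0.748% of 16569 genes under median-of-ratios scaling and 0.7% under nuclear totals, and 5.04% and 4.72% among the 2142 genes with 10 or more IgG reads. Under the first scaling their folds were 2.76 (adjusted p = 1.1e-06), 1.97 (adjusted p = 1.8e-25) and 1.64 (adjusted p = 0.0188). Under the same scalings 0 of 10 members were called for PABPC1 over IgG by the chi-square test. The background for PABPC1 was 0.15% of 17295 genes under median-of-ratios scaling and 0.139% under nuclear totals, and 0.84% and 0.794% among those with 10 or more IgG reads. Fisher's exact test on unscaled totals called 4 of 10 for PABPC1 over IgG, against 1.78% of 17319 genes. The limma-voom fit of PABPC4 against PABPC1 called 8 members when it was scaled to library totals, all but PDIA3 and the untested SDF2L1. That setting called 13.8% of all 7975 genes higher, against 2.07% when scaled to the median of ratios.

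**Figure D3:**
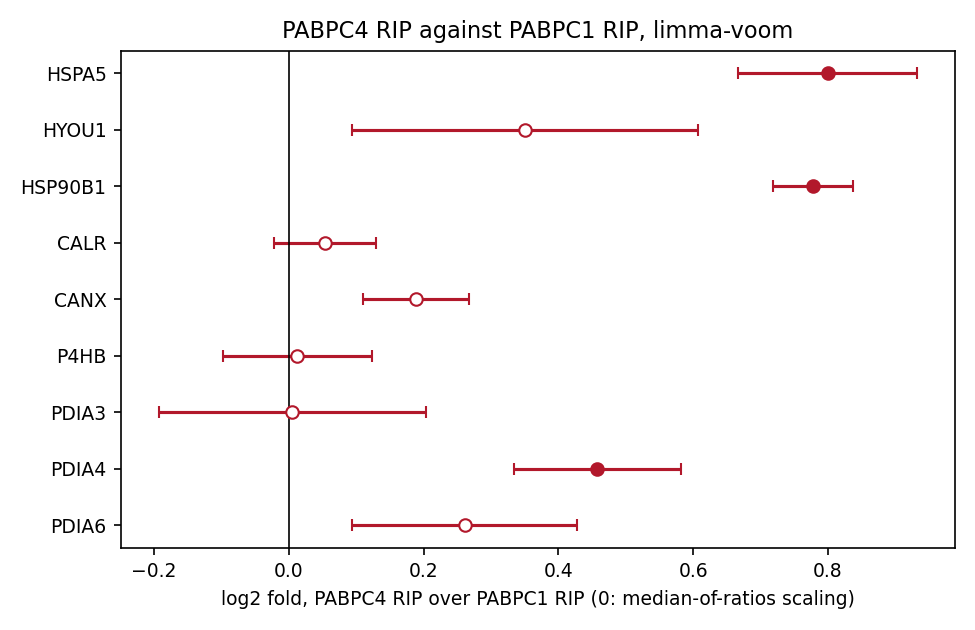
Limma-voom log2 fold of PABPC4 RIP over PABPC1 RIP for the 9 mRNAs tested, with bars of 1 SE on each side and filled points for an adjusted p under 0.05. HSPA5 (0.80), HSP90B1 (0.78) and PDIA4 (0.46) are filled, while P4HB and PDIA3 lie at 0.01 and CALR at 0.05.

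**Figure D4:**
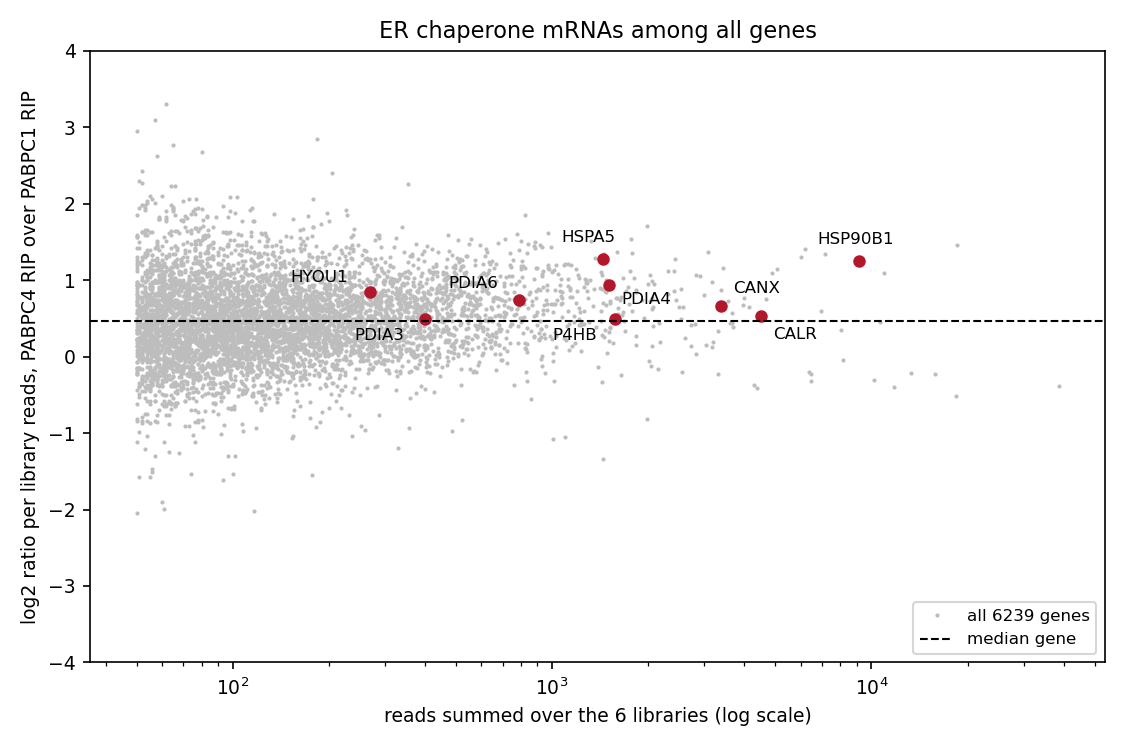
Log2 ratio of PABPC4 RIP over PABPC1 RIP per library read against reads summed over the 6 libraries (log scale), for 6239 genes in grey and 9 ER folding mRNAs in red. The dashed line is the median gene (0.46 on the log2 scale), and HSPA5 and HSP90B1 stand above it at ratios of 2.43 and 2.38.

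Levels per length gave a similar order in the 3 groups, with a few exchanges. RPKM is RPM per kilobase of the gene length worked out from the deposited folds. In RPKM, PABPC4 libraries ran HSP90B1, CALR, CANX, PDIA4, HSPA5, P4HB, PDIA6, PDIA3, HYOU1 and SDF2L1, and no neighbours overlapped. PDIA4, HSPA5 and P4HB averaged 731, 736 and 712 RPM with PABPC4. Their order in RPKM thus follows their lengths of 3277, 3908 and 5303 nucleotides. HSP90B1 averaged 980 RPKM and CALR 746 RPKM in PABPC4 libraries, while in PABPC1 libraries HSP90B1 averaged 412 RPKM and CALR 518 RPKM, and in IgG libraries HSP90B1 averaged 259 RPKM and CALR 463 RPKM. HSPA5 lay at place 5 with PABPC4 (183 and 194 RPKM), at place 6 with PABPC1 (70.8 and 84.8 RPKM) and at place 7 with IgG (38.5 and 32.6 RPKM). Neighbours whose libraries overlapped were HYOU1 and SDF2L1 with PABPC1, and PDIA4 and P4HB, PDIA6 and HSPA5, and HYOU1 and SDF2L1 with IgG. Among 15073 genes ranked by RPKM, HSP90B1 stood at rank 18 with PABPC4, 29 with PABPC1 and 42 with IgG, CALR at 23 with PABPC4, 23 with PABPC1 and 29 with IgG, and HSPA5 at 84 with PABPC4, 193 with PABPC1 and 362 with IgG.

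Other genes of the ER and of the stress response were read by the same rules, with no test between the lists. Of 46 other ER folding genes, 4 were listed higher with PABPC4 in the authors' deposited table, namely CALU, FKBP2, PPIB and FKBP10, and 1 with PABPC1, FKBP2. Their median ratio of PABPC4 over PABPC1 was 1.30 among the 27 with at least 50 reads, against 1.38 over all genes. CALU, a calcium-binding protein of the secretory pathway, was listed at 2.04-fold with PABPC4 (adjusted p = 0.00031) and 1.54-fold with PABPC1 (adjusted p = 0.364) in the authors' deposited tables. FKBP10, a prolyl isomerase for collagen, was at 1.89-fold (adjusted p = 0.0127) and 1.36-fold (adjusted p = 1) with PABPC4 and PABPC1 in the authors' deposited tables. ERP29 and TMX4, both of the thioredoxin family, were at 1.42-fold and 1.31-fold with PABPC4 and 1.20-fold and 1.01-fold with PABPC1 in the authors' deposited tables, and neither was called. FKBP2, a prolyl isomerase named here after its values were seen, went against HSPA5: it had 146 reads with PABPC4, 83 with PABPC1 and 2 with IgG, and was lower with PABPC4 than with PABPC1 by 1.24 on the log2 scale (limma-voom log2 fold -1.24, SE 0.21, adjusted p = 0.00011).

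Of 23 genes of glycan processing and ER-associated degradation, 3 were listed higher with PABPC4 (UGGT1, UBXN4 and MLEC) and 2 with PABPC1 (UGGT1 and MLEC) in the authors' deposited tables. UGGT1, which marks misfolded glycoproteins for another round with calnexin, was listed at 3.23-fold with PABPC4 (adjusted p = 0.00017) and 2.84-fold with PABPC1 (adjusted p = 0.0126) in the authors' deposited tables. UBXN4, of the degradation machinery, was at 2.75-fold with PABPC4 (adjusted p = 6e-05) and 1.78-fold with PABPC1 (adjusted p = 0.386) in the authors' deposited tables. PRKCSH, the beta subunit of glucosidase II, and OS9, a lectin of ER-associated degradation, were at 1.55-fold and 1.63-fold with PABPC4 in the authors' deposited table and were not called. GANAB, the alpha subunit of glucosidase II, was named after its values were seen and was lower with PABPC4 than with PABPC1 (log2 fold -0.96, SE 0.29, adjusted p = 0.0466, limma-voom).

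Of 12 sensors and factors of the unfolded protein response, XBP1 and ATF4 were listed higher with PABPC4 and ATF4 with PABPC1 in the authors' deposited tables. ATF4, the transcription factor of the integrated stress response, had 894 and 886 reads with PABPC4, 328 and 355 with PABPC1 and 54 and 39 with IgG. Its deposited folds by the authors' tables were 2.57 with PABPC4 (adjusted p = 1.2e-17) and 2.94 with PABPC1 (adjusted p = 2.9e-21). In the limma-voom fit ATF4 was lower with PABPC4 than with PABPC1 (log2 fold -0.67, SE 0.077, adjusted p = 4.2e-08), the opposite side from HSPA5 and HSP90B1, which are known targets of the same response. XBP1, whose spliced form drives ER chaperone genes, was at 1.64-fold with PABPC4 (adjusted p = 0.0192) and 1.45-fold with PABPC1 (adjusted p = 0.529) in the authors' deposited tables. PPP1R15A and ATF6B stood at 1.82-fold and 1.69-fold with PABPC4 in the authors' deposited table without a call.

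The cytosolic relatives of HSPA5 and HSP90B1 gave a mixed comparison. Of 12 cytosolic and mitochondrial heat shock genes, 6 were listed higher with PABPC4 and 4 with PABPC1 in the authors' deposited tables, and limma-voom called 1 of 10 higher in PABPC4 than in PABPC1. That gene was HSP90AA1, the inducible cytosolic HSP90, with 3398 and 2955 RPM with PABPC4, 1169 and 1232 with PABPC1 and 654 and 711 with IgG (log2 fold of PABPC4 over PABPC1 0.93, SE 0.093, adjusted p = 1.1e-09). HSP90AB1, the constitutive form, differed by 0.12 on the log2 scale (SE 0.058, adjusted p = 0.301, limma-voom), and HSPA8, the constitutive cytosolic HSP70, by 0.14 (SE 0.15, adjusted p = 0.708, limma-voom). Of 20 J-domain and chaperonin genes, 7 were listed higher with PABPC4 and 0 with PABPC1 in the authors' deposited tables. Of 35 genes of the signal recognition particle and the ER translocon, 4 were listed higher with PABPC4 and 3 with PABPC1 in the authors' deposited tables. Of their 26 tested genes limma-voom called 3 lower with PABPC4 than with PABPC1 and 0 higher. The 3, named after their values were seen, were SRP9 of the signal recognition particle and STT3A and STT3B, the catalytic subunits of oligosaccharyltransferase. The median ratios of PABPC4 over PABPC1 were 1.67 for the 9 members with at least 50 reads, 1.58 for heat shock genes, 1.57 for J-domain and chaperonin genes and 1.06 for translocon genes.

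The genes outside these lists whose pair of deposited folds lay nearest to the members' medians (2.22 with PABPC4 and 1.53 with PABPC1), among 786 genes with at least 20 IgG reads, were RARRES2, SLC38A2, HELLS, NOLC1 and ENAH. Their distances were 0.0318 to 0.0707 on the log2 scale over the 2 comparisons. RARRES2, which encodes the secreted protein chemerin, was at 2.18-fold with PABPC4 and 1.51-fold with PABPC1 in the authors' deposited tables.

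Markers of other cell types ran in the opposite order of groups to the ER folding mRNAs. The 11 blood markers summed to 645 to 797 RPM in PABPC4 libraries, 1418 to 1506 in PABPC1 libraries and 3728 to 3820 in IgG libraries, and 7 were listed lower with PABPC4 and 4 with PABPC1 in the authors' deposited tables. Of them HBB, a globin chain of red cells, stood at 334 and 270 RPM with PABPC4, 740 and 793 with PABPC1 and 2203 and 2228 with IgG. The 8 fibroblast markers summed to 15.5 to 27.1 with PABPC4, 43.2 to 62.2 with PABPC1 and 191 to 233 with IgG. Summed over a group's libraries, 0 of the blood and fibroblast markers were at 0 with PABPC4 or PABPC1, and in IgG 1 blood marker (HBD) and 2 fibroblast markers (PDGFRB and LUM) were. The hepatocyte marker ALB, albumin, stood at 1269 and 1468 RPM with PABPC4, 1148 and 1362 with PABPC1 and 677 and 509 with IgG. Scaled to the median of ratios, ALB was lower with PABPC4 than with PABPC1 (log2 fold -0.35, SE 0.084, adjusted p = 0.0084, limma-voom). All libraries are labelled as HepG2, a liver cancer cell line, and the source of the blood and fibroblast RNAs was not tested. Their part in the ratios of the ER folding mRNAs was not tested either.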

How the data were processed

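RNA from 6 HepG2 immunoprecipitations was sequenced with a random-primed SMART-seq method, per the labels. Tools named in the submitters' processing notes were STAR 2.7.10a, Bowtie2 2.4.1 and featureCounts 2.0.1, with builds hg38 and GRCh38 and no stated roles. The authors deposited 2 tables, PABPC4 and PABPC1 each against IgG, with a linear fold (ratio of RIP over IgG), a p-value and a Benjamini-Hochberg adjusted p-value per gene, and 0 columns of single libraries. From the values themselves, the deposited p-value is that of a Yates-corrected chi-square on summed reads, and the deposited fold equals the ratio of mean RPKM with 0.005 added to the IgG mean. The chi-square statistic and this ratio take few values, so whole reads were recovered by search. Recomputed and deposited p-values differed by at most 4.4e-13 in log ratio, and 10617 of 10617 genes solved in each table alone gave the same IgG reads. Of 15097 genes read in both RIPs, 15073 were split by library. In 232 genes several splits were possible and the smallest was taken. Libraries are called A and B because the recovery carries no replicate number.

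The members' calls against IgG are the deposited ones. PABPC4 was set against PABPC1 with limma 3.58.1 (voom) in R 4.3.3 on the 7975 genes that reached 10 reads in 2 or more libraries, in 3 groups, with median-of-ratios scaling, 3 residual and 35.3 prior degrees of freedom and Benjamini-Hochberg adjustment over all 7975. Ratios carry exact 95% intervals of summed reads, conditional on totals. The recovery and the fit were tested on simulated data. In that test of PABPC4 against PABPC1 the fit called 9 of 87 genes set to differ by 1 on the log2 scale, in the right direction. It called 34 of 78 set to differ by 2, and 0 of 7746 left unchanged. These genes were drawn at random from those reaching 10 reads in 2 libraries, so the rates do not describe deeply read members. A member without a call in this fit may still differ between the RIPs. Its SE shows the precision reached, from 0.075 for CALR to 0.26 for HYOU1 on the log2 scale. Alternatives covered scaling, tests, filters and left-out libraries. Totals of 94235 to 850190 reads limit precision, IgG most.

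The members, gene lists and tests were chosen with earlier results of these data known. Genes named besides the members were the 4 with most reads in each list of other ER folding, glycan and degradation and unfolded protein response genes, HSPA8, HSP90AA1, HSP90AB1, the 5 nearest genes, ALB and HBB. Other genes named, and each list's called genes, were chosen after their values were seen. Sequences and gene positions are RefSeq's (GRCh38.p14), and 9 of 10 members had a promoter window.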

Additional observations from a re-analysis of the deposited data

Results flagged for a closer look

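For 3 members the test of the difference itself separated the PABPC4 from the PABPC1 immunoprecipitation, by limma-voom over 2 libraries a group. HSPA5 was higher with PABPC4 than with PABPC1 by 0.799 on the log2 scale (adjusted p = 7.3e-05). HSP90B1 was higher by 0.778 (adjusted p = 4.7e-13), and PDIA4 by 0.458 (adjusted p = 0.0228). In each of the 3, both PABPC4 libraries lay above both PABPC1 libraries in RPM. The same held for HYOU1, CALR, CANX, P4HB, PDIA3 and PDIA6, which were not called, so it does not set the 3 apart. The median gene itself stood at 1.38 times in PABPC4 over PABPC1 per library read.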

How the results depend on the processing

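No paired analysis was possible because the recovered libraries carry no replicate numbers. With a library left out, the share of all genes called was not worked out. Member counts in those settings therefore have no background and describe the setting only. The count of members called higher in PABPC4 over IgG was 8 as deposited, 3 under median-of-ratios scaling, 3 under nuclear totals, 2 by limma-voom and 6 to 8 with a library left out. For PABPC1 over IgG it was 2 as deposited, 0 under median-of-ratios scaling, 0 under nuclear totals, 0 by limma-voom, 4 by Fisher's exact test and 1 to 3 with a library left out. For PABPC4 over PABPC1 it was 3, with 8 under library totals. With a library left out, the limma-voom folds were 1.66 to 1.86 for HSPA5, 1.68 to 1.81 for HSP90B1 and 1.27 to 1.48 for PDIA4. As given above, each of the 3 calls was lost when a PABPC1 library was left out. The members' share of reads was 1.43% for PABPC4, 1.07% for PABPC1 and 1.10% for IgG among nuclear-encoded genes. Without HSP90B1 it was 0.644%, 0.401% and 0.306% of all reads in these groups.

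Folds that changed side of 1 against IgG were those of HYOU1, CALR, CANX and SDF2L1. For PABPC4 over IgG, CALR was 0.843 and CANX 0.965 under median-of-ratios scaling, HYOU1 0.974, CALR 0.817 and CANX 0.935 under nuclear totals, and HYOU1 0.938, CALR 0.846 and CANX 0.965 by limma-voom. For PABPC1 over IgG, HYOU1, CALR and CANX were 0.779, 0.810 and 0.845 under median-of-ratios scaling, 0.757, 0.786 and 0.819 under nuclear totals, and 0.736, 0.815 and 0.846 by limma-voom. With a library left out, HYOU1 ranged from 0.987 (without PABPC1 library A) to 1.16 for PABPC1 over IgG. SDF2L1, with 9 reads in all, ranged with a library left out from 0.167 to 322 for PABPC4 over IgG and from 0.835 to 1613 for PABPC1 over IgG, where the highest values come from the added 0.005 RPKM, no IgG read being left without IgG library B. For PABPC4 over PABPC1, P4HB was 0.986 and PDIA3 0.981 with at least 20 reads, and 0.995 and 0.990 with the 4 RIP libraries alone. With a library left out, P4HB ranged from 0.944 (without PABPC1 library A) to 1.08, and PDIA3 from 0.965 (without PABPC1 library B) to 1.09. P4HB was called for PABPC1 over IgG without PABPC1 library A (1.59-fold, adjusted p = 0.0436, chi-square). Of single-member values, 68 of 89 for PABPC4 over IgG, 66 of 89 for PABPC1 over IgG and 77 of 99 for PABPC4 over PABPC1 kept their direction and side of the threshold. The cause of the other changes was not tested.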
